A study of Homo sapiens with 12 samples.

Results

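The 3033 regions described here carried an H3K4me2 peak in U-937 cells given all-trans retinoic acid (ATRA), alone and with Corin, and no peak in cells given the vehicle DMSO or Corin alone. They were found by merging overlapping or touching peaks of the 4 deposited peak lists into 84577 regions and keeping those with an ATRA peak and an ATRA+Corin peak and no other, so they are 3.59% of all regions. They are called ATRA-shared regions below. They were chosen by the presence of peaks in the lists, so their peak values are given as a description, and the comparisons rest on position relative to genes, on sequence and on neighbouring genes, which the rule did not use. U-937 is an established human leukaemia line of the monocytic lineage. The cells were cultured for 24 hours with DMSO (which the labels also list at 0.1 µM), with 0.1 µM ATRA, with 0.1 µM Corin, or with 0.1 µM of each drug. Each treatment had 2 H3K4me2 libraries and 1 input library, 12 samples in all. The peaks were deposited as 1 list per treatment with no values per library, so replicate spread cannot be measured, p-values are not given, and each difference is one between these lists.

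H3K4me2 is a histone mark of active and poised promoters and enhancers. ATRA binds the retinoic acid receptors, which pair with retinoid X receptors on direct repeats of a short DNA unit and exchange corepressors for coactivators when the hormone binds. LSD1, a demethylase in the CoREST complex, removes methyl groups from H3K4, and Corin blocks both LSD1 and the histone deacetylases of that complex. In monocytic cells, PU.1, C/EBP, RUNX and AP-1 factors occupy many of the enhancers that carry this mark.

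A direct repeat with a spacer of 5 bases (DR5) is the classical retinoic acid response element. It was found within 150 bp of the ATRA+Corin summit in 12 of the 3033 regions, and the stretches of 6 of these that ranked highest in both lists are shown, since the DR5 is the sequence through which the receptors are known to act. All coordinates are on GRCh38 (hg38), sequences run 5′ to 3′ on the strand given, and capitals mark the DR5.
DR5 downstream of CYP26A1 (chr10:93150408-93150488, minus strand): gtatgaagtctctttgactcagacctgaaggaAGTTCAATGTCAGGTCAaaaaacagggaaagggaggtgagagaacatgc
DR5 in an intron of TENM4 (chr11:78923376-78923456, minus strand): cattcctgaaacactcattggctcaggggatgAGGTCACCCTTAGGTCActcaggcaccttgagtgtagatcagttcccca
DR5 upstream of GSAP (chr7:77475241-77475321, plus strand): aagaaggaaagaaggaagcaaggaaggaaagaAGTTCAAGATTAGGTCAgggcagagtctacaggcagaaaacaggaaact
DR5 in an intron of ABCC6 (chr16:16197295-16197375, plus strand): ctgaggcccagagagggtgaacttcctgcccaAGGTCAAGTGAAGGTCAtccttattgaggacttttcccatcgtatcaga
DR5 upstream of FCRL4 (chr1:157624570-157624650, plus strand): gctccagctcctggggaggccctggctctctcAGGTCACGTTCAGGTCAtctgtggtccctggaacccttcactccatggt
DR5 in an intron of BCL2 (chr18:63246031-63246111, plus strand): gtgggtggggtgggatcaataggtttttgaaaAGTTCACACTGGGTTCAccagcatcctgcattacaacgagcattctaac

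The region of the first stretch ranked best of the 12 and lay outside genes, 76274 bp downstream of the start site of CYP26A1, which encodes the cytochrome P450 that breaks down retinoic acid. Its whole 300-base window is shown because 3 motifs stood close together in it. Capitals mark, in order, a RUNX motif (AACCACA, which is TGTGGTT on the other strand), an AP-1 motif (TGACTCA) and the DR5.
Window downstream of CYP26A1 (chr10:93150235-93150534, minus strand): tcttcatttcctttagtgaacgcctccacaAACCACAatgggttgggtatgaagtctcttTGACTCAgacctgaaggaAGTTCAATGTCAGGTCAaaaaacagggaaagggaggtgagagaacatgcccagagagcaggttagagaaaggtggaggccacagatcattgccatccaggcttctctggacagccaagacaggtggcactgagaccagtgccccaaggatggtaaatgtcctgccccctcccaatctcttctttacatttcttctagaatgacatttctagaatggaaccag

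The PU.1 motif GAGGAAGT was more frequent in the ATRA-shared regions than in the regions marked in both Corin lists only. The regions near 3 listed genes that held it show its setting, with the motif in capitals; these sequences were picked for printing after their values were seen. ALDH1A2 encodes an enzyme that makes retinoic acid, CEBPE encodes a C/EBP factor of granulocyte maturation, and the stretch nearest to HDAC1 lay in an intron of LCK, a lymphoid tyrosine kinase gene.
PU.1 motif in ALDH1A2 (chr15:58088037-58088096, plus strand): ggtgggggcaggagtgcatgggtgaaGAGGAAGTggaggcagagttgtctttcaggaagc
PU.1 motif upstream of CEBPE (chr14:23129240-23129299, plus strand): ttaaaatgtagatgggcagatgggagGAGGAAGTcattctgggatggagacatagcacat
PU.1 motif in LCK, upstream of HDAC1 (chr1:32252109-32252168, plus strand): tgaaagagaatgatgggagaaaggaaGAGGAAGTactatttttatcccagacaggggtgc

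Start sites of 7 of 8 myeloid marker genes lay under a DMSO peak (CD33, CD4, CD68, CEBPA, CSF1R, LYZ and SPI1), while that of MPO did not. The share over all protein-coding start sites was 47.3%. Under an ATRA peak lay 7 of the 8 (48.1% of all start sites), under a Corin peak 7 (38.0% of all) and under an ATRA+Corin peak 4 (38.0% of all). Of the markers of other cell types, 0 of 5 T cell, 0 of 4 erythroid and 0 of 4 epithelial start sites lay under a DMSO peak, and 2 of 4 B cell ones did, CD79A among them. Against DMSO, 11.7% of all regions were gained in the ATRA list and 32.1% in the ATRA+Corin list, and 22.5% were gained in the ATRA+Corin list against the Corin list. These shares were used by the rule and nothing is read from them.

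The ATRA-shared regions were weak peaks within their lists. Their median fold over input was 4.18 in the ATRA list (1.795 to 22.87) and 4.192 in the ATRA+Corin list (1.836 to 16.38). Fold, −log10 p and −log10 q are the values of the authors' peak caller. The H3K4me2 fragments at a summit, recovered from the deposited fold and p-value, had a median of 21 in the ATRA list (10 to 121) over a background of 3.415. In the ATRA+Corin list it was 26 (12 to 121) over a background of 4.018. The libraries behind the lists differ in depth, with a lowest background of 2.963 fragments for ATRA and 3.494 for ATRA+Corin, so fragments are not set on one scale across lists. A −log10 q at or above 5 was found for 1458 regions in the ATRA list, against 85.2% of all regions with an ATRA peak, and for 1467 in the ATRA+Corin list, against 74.5% of all regions with a peak there. Both lists reached it in 830 regions, and 37 regions had a −log10 q under 2 in both. The median region sat at percentile 82.6 of the ATRA list and 74.2 of the ATRA+Corin list, counted from the strongest peak. The highest rank was 13856 of 66385 ATRA peaks and 21310 of 83969 ATRA+Corin peaks.

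How firmly the absence of a peak in the other lists can be read depends on depth and on how the lists were selected. By their names, the lists hold the peaks kept by a reproducibility overlap step, whose settings are not given. Peaks left out by that step cannot be seen in the lists, and its effect was not tested. The DMSO list also held peaks with as few as 10 fragments at the summit, and 20.8% of its summits had no more fragments than the median ATRA-shared region had after ATRA. The nearest DMSO or Corin peak lay at a median of 4325 bp, and within 100 bp in 64 regions and 1 kb in 717. The closest lay 2 bp away. Just outside the rule, 1659 regions were kept out by a DMSO peak alone and 4144 by a Corin peak alone. The excluding DMSO peak had a median −log10 p of 6.139 and was under 3 in 82 regions. The excluding Corin peak had a median of 7.287 and was under 3 in 126.

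Strength in one list was weakly related to strength in the other. Across the 3033 regions, fold in the ATRA list and in the ATRA+Corin list had a Pearson r of 0.229 on the log scale and a Spearman rho of 0.2, as a description of regions that share their libraries and that were all cut at a lower limit in both lists. The fold was higher in the ATRA list in 1538 regions. The summits lay close together, at a median distance of 55 bp, and 1452 were within 50 bp of each other. The plot of fold by list shows the 12 DR5 regions spread through the same range as the rest.

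**Figure D1:**
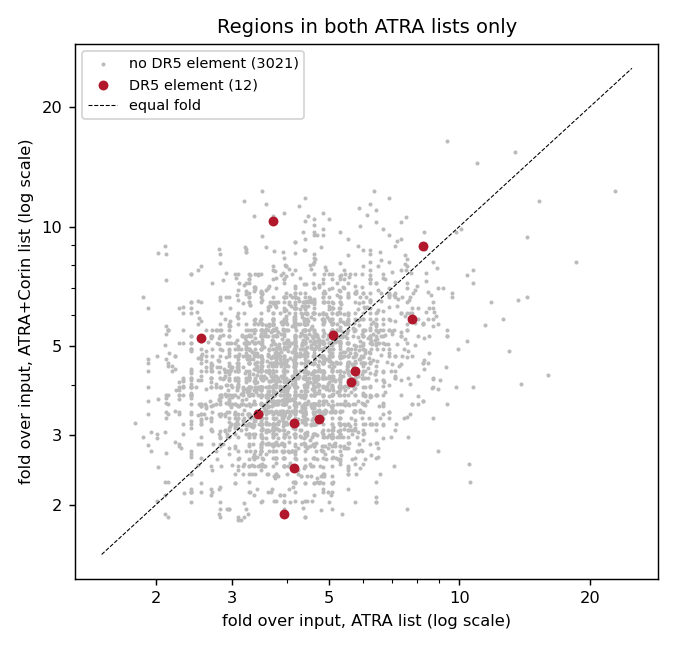
Fold over input at the summit in the ATRA list (x axis, log scale) and in the ATRA+Corin list (y axis, log scale) for the 3033 ATRA-shared regions, with the 12 regions holding a DR5 in red and a dashed line of equal fold. Points scatter on both sides of the line, with 1538 regions higher in the ATRA list.

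Few ATRA-shared regions were promoters. Within 1 kb of an annotated start site lay 155 regions (5.11%, 95% Wilson interval 4.382 to 5.952), of which 46 covered a start site. The nearest start was that of a protein-coding gene for 76 of the 155 and of a long non-coding RNA for 79. Gene bodies held 64.09% and 30.79% lay outside genes. These shares were measured in the same way in 4 other sets: Corin-shared regions (6179, in both Corin lists only), combination-only regions (13794, in the ATRA+Corin list only), all-drug regions (4144, in the 3 drug lists and not the DMSO list) and common regions (43264, in all 4 lists). The promoter share was 5.389% (4.853 to 5.98) for Corin-shared regions and 37.92% for common regions. It was 4.509% (4.175 to 4.868) for combination-only and 6.515% (5.804 to 7.308) for all-drug regions. The difference of the ATRA-shared share from that of Corin-shared regions was within the counting error. All intervals of shares cover counting error only, and neighbouring regions are not independent.

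The median distance to a protein-coding start site was 38120 bp for ATRA-shared and 26980 bp for Corin-shared regions. For combination-only regions it was 26020 bp and for all-drug regions 34390 bp. An exon was overlapped by 12.13% of ATRA-shared regions (11.02 to 13.34) and by 9.921% of Corin-shared ones (9.2 to 10.69). The share was 8.199% (7.753 to 8.669) for combination-only and 11.51% (10.57 to 12.52) for all-drug regions. Base composition of the 300-base windows differed little between these sets: the median GC content was 46.67% for ATRA-shared and 46% for Corin-shared regions, against 51.67% for common regions. The distance to the nearest DMSO peak is given as a description, since the choice of each set used the DMSO list. A DMSO peak lay within 5 kb of 44.51% of them (42.75 to 46.28), against 50.61% of Corin-shared (49.36 to 51.85) and 55.07% of combination-only (54.24 to 55.9) and 45.37% of all-drug regions (43.86 to 46.89). Within 1 kb the shares were 15.17%, 21.04%, 23.23% and 18.22% in the same order. With peaks within 1 kb merged, the shares within 5 kb were 30.35%, 28.99%, 29.23% and 28.32%, so their order depended on the merging.

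Sequence was compared over 300 bases centred on the ATRA+Corin summit, on both strands, for 21 motifs and repeats in 4 pairs of sets. Of the 84 resulting 95% Newcombe intervals of a difference, 26 excluded 0, with no adjustment for their number. The ATRA-shared regions held fewer AP-1 and more PU.1 motifs than the Corin-shared regions. AP-1 factors are the dimers of FOS and JUN proteins, and their motif TGANTCA was found in 9.792% of ATRA-shared regions (297 regions) against 14.27% of Corin-shared ones, a difference of −4.48 percentage points (−5.83 to −3.08). Over all 74264 regions with an ATRA+Corin peak the AP-1 share was 10.15%. The AP-1 share did not differ detectably from that of combination-only regions (10.05%, difference −1.39 to 0.957). Nor did it from that of all-drug regions (11.22%, difference −2.85 to 0.0157). With peaks within 1 kb merged, the difference from all-drug regions was −3.37 to −0.0458. The PU.1 motif GAGGAAGT, bound by the ETS factor that directs myeloid development, was found in 6.363% (193 regions) against 4.483%, a difference of 1.88 points (0.9 to 2.93). Its share over all regions with an ATRA+Corin peak was 3.738%. The PU.1 share was 2.5 points higher than in all-drug regions (1.47 to 3.58). It was 1.56 points higher than in combination-only regions (0.67 to 2.55), but this last difference was not kept with only peaks at or above a −log10 q of 5 (5.444% and 5.62%). Nor was it kept with peaks within 1 kb merged (7.143% and 6.582%, difference −0.609 to 1.83) or with lists of equal length (6.083% and 5.533%, difference −0.565 to 1.76).

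GFI1 motifs were less frequent and IRF motifs more frequent in ATRA-shared than in Corin-shared regions, and C/EBP and GATA motifs did not differ detectably. The motif AATCANNGC of GFI1, a repressor that recruits LSD1, was found in 3.495% of ATRA-shared and 5.551% of Corin-shared regions, a difference of −2.06 points (−2.9 to −1.16). Its share over all regions with an ATRA+Corin peak was 3.59%. All-drug regions held it in 4.006%, with no detectable difference (−1.39 to 0.394). For combination-only regions (4.313%) the difference was −1.51 to −0.0329 on all peaks and −1.43 to 0.529 with lists of equal length. It was −2.09 to −0.343 with only peaks at or above a −log10 q of 5, and −1.81 to 0.0254 with peaks within 1 kb merged. The IRF motif, of interferon regulatory factors, was 1.63 points more frequent (0.609 to 2.71) at 6.759% against 5.13%, with 4.835% over all regions with an ATRA+Corin peak. Combination-only regions held it in 6.082% (difference −0.258 to 1.7) and all-drug regions in 7.481% (difference −1.91 to 0.496). With lists of equal length the IRF difference from combination-only regions was 0.57 to 3.16. It was −0.324 to 1.97 with only peaks at or above a −log10 q of 5, and −0.778 to 1.82 with peaks within 1 kb merged. The RUNX motif TGTGGTT was 1.95 points less frequent on all peaks, with 6.594% against 8.545% (difference −3.05 to −0.796) and 6.694% over all. This difference was not kept with only peaks at or above a −log10 q of 5 (7.977% and 8.27%, difference −1.64 to 1.09) or with lists of equal length (7.194% and 8.478%, difference −2.7 to 0.177). C/EBP sites (TTGCNNAA) were at 19.22% and 19.34% (difference −1.81 to 1.62), with 16.3% over all. GATA sites (AGATAA) were at 16.22% and 15.25% (difference −0.59 to 2.59), with 12.63% over all. GGGCGG, the SP/KLF box of CpG-rich promoters, was at 6.034% in ATRA-shared and 18.73% in common regions, and at 13.41% over all. The NRF1 motif was found in 1 ATRA-shared region and in 28 of all regions with an ATRA+Corin peak (0.0377%). At least 1 of the PU.1, C/EBP, AP-1, RUNX, IRF and DR5 motifs was present in 1232 ATRA-shared regions and none of them in 1801. PU.1 and C/EBP motifs occurred together in 42, PU.1 and AP-1 in 21, and PU.1 and DR5 in 3.

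**Figure D2:**
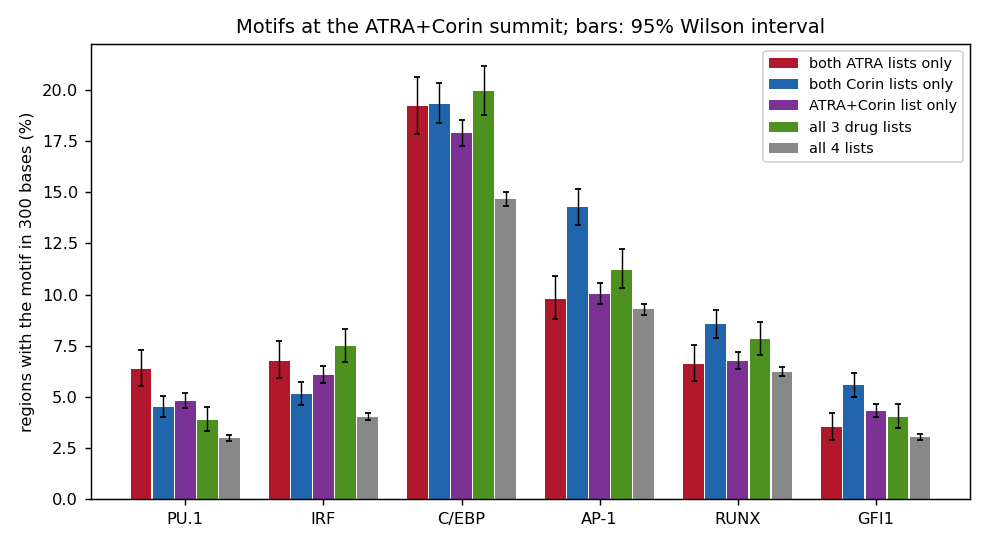
Share of regions with each motif in 300 bases centred on the ATRA+Corin summit (y axis, percent) for 5 sets of regions, with 95% Wilson intervals. PU.1 stands at 6.363% in ATRA-shared regions against 4.483% in Corin-shared ones, and AP-1 at 9.792% against 14.27%.

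The position of the motifs around the summit was also compared. PU.1 motifs in ATRA-shared regions were concentrated on both flanks of the summit: each 100-base step from 100 to 200 bp away held one in 3.396% of regions, the average of both sides, against 0.5308% in steps from 500 to 1000 bp, a ratio of 6.4. The steps next to the summit held one in 1.517% and 1.616%. The corresponding ratio was 4.64 in Corin-shared, 4.23 in combination-only and 4.89 in all-drug regions. AP-1 motifs, by contrast, did not rise near the summit of ATRA-shared regions, with 3.33% at 100 to 200 bp against 3.083% farther out, a ratio of 1.08. In Corin-shared regions AP-1 stood at 6.554% against 3.431% (1.91), and the ratio was 1.35 in combination-only and 1.55 in all-drug regions. For GFI1 the ratio was 0.928 in ATRA-shared, 1.59 in Corin-shared, 1.09 in combination-only and 0.861 in all-drug regions, and for C/EBP it was 1.54, 1.49, 1.36 and 1.68 in the same order. The distance of 100 to 200 bp was chosen after the positions were seen, so these ratios are a description.

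**Figure D3:**
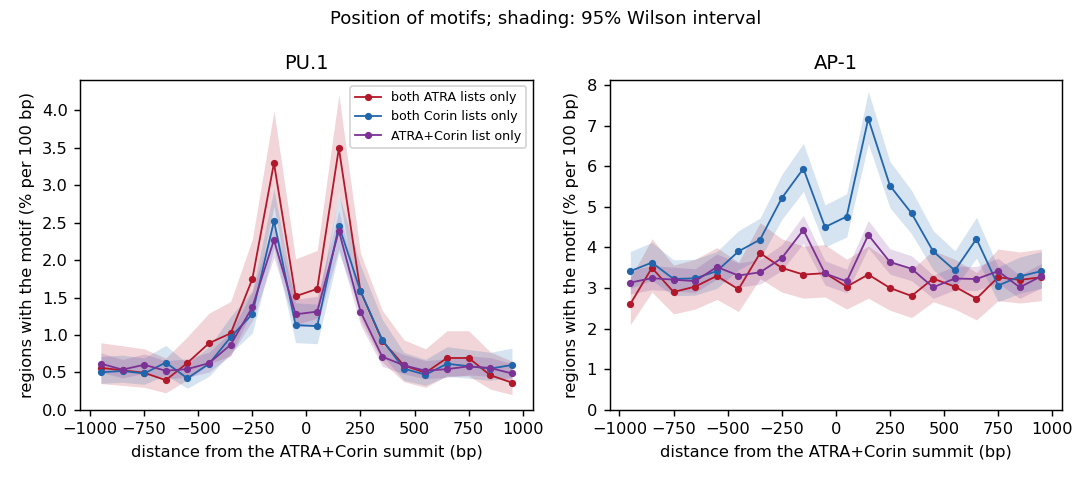
Share of regions with a PU.1 (left) or AP-1 (right) motif in each 100-base step (y axis, percent) by distance from the ATRA+Corin summit (x axis, bp), with 95% Wilson intervals shaded. In ATRA-shared regions PU.1 peaks on both flanks of the summit at 3.297% and 3.495%, and AP-1 is flat, while AP-1 in Corin-shared regions reaches 7.169%.

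Direct repeats of the receptor unit were rare. The single unit AGGTCA was found in 25.45% of ATRA-shared regions, against 23.5% of Corin-shared regions and 22.28% of all regions with an ATRA+Corin peak. For repeats, each unit was read as AGGTCA with G also allowed in place of the leading A and T in place of the G before TCA, and spacers from 0 to 10 bases were searched, by name DR0 to DR10. The DR5 was found in 0.3956% of ATRA-shared regions (12 regions, 0.2265 to 0.6903) and in 0.08092% of Corin-shared ones (5 regions), a difference of 0.315 points (0.114 to 0.613). It was found in 0.1305% of combination-only regions (18 regions, difference 0.0798 to 0.564) and in 0.1689% of all-drug regions (7 regions, difference −0.0198 to 0.534). The difference from combination-only regions was not kept with only peaks at or above a −log10 q of 5 (0.3025% and 0.1491%, difference −0.0413 to 0.454) or with lists of equal length (0.3996% and 0.1654%, difference −0.00648 to 0.601). That from Corin-shared regions excluded 0 under each of these limits. Over all regions with an ATRA+Corin peak, 81 held one (0.1091%). With both units spelled AGGTCA, 5 ATRA-shared regions held a DR5, of 14 in all regions with an ATRA+Corin peak. The DR1, a spacing bound by retinoid X receptors with several partners, was at 0.3297% (10 regions) against 0.04855% of Corin-shared regions (difference 0.104 to 0.559) and 0.1225% over all. Combination-only regions held it in 0.1015% (difference 0.0627 to 0.507). This difference was −0.00164 to 0.539 at a −log10 q limit of 5 and −0.0501 to 0.567 with lists of equal length. All-drug regions held it in 0.1207%, with a difference of −0.0117 to 0.494, and of 0.0145 to 0.659 with lists of equal length. Of the 44 intervals for direct repeats, 9 excluded 0. The counts behind each repeat are small.

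**Figure D4:**
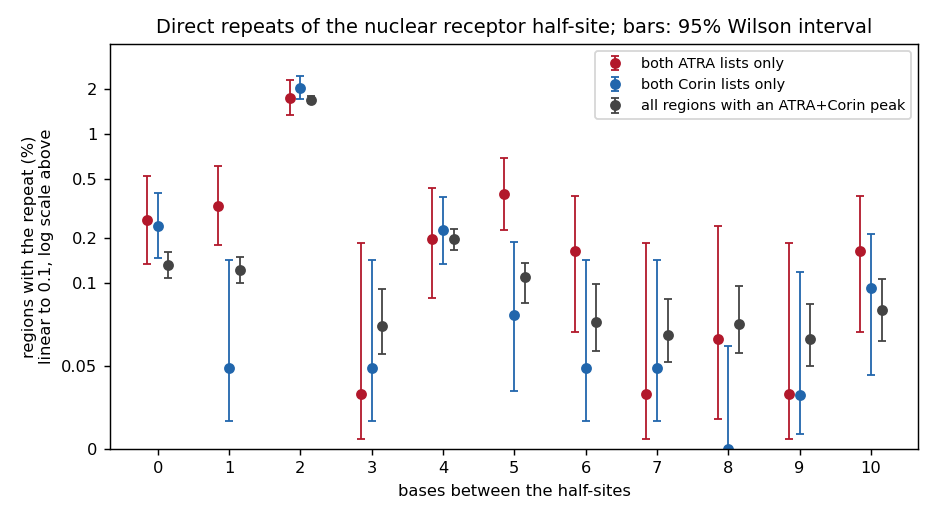
Share of regions with a direct repeat of the receptor unit (y axis, percent, linear up to 0.1 and logarithmic above) by number of bases between the units (x axis), with 95% Wilson intervals. At 1 and 5 bases the ATRA-shared regions (0.3297% and 0.3956%) stand above the Corin-shared regions and above all regions with an ATRA+Corin peak, and at 2 bases they hold 1.747%, against 2.039% and 1.69%.

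The DR2, the other spacing known from retinoid targets, was the most frequent repeat, at 1.747% of ATRA-shared regions (53 regions), 2.039% of Corin-shared and 1.69% of all regions with an ATRA+Corin peak. Combination-only regions held it in 2.385%, a difference of −0.638 points (−1.13 to −0.0542) that was not kept with only peaks at or above a −log10 q of 5 (difference −1.13 to 0.146). In 35 of the 53 it had the same spelling (66%), which was also that of 971 of the 1255 over all (77.4%).

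The 12 DR5 regions lay 5759 bp or farther from the nearest protein-coding start site, and none lay closer than 4646 bp to any start site. The region downstream of CYP26A1 (chr10:93150167-93151315) had 35 fragments after ATRA, with a −log10 q of 16.34, and 45 after ATRA+Corin, with 17.61. Its nearest DMSO peak was 6516 bp away and its nearest Corin peak 25037 bp. The intronic region in TENM4, a gene for a teneurin cell surface protein (chr11:78922905-78923993), had 33 fragments in the ATRA list and 29 in the ATRA+Corin list. The region upstream of FCRL4, an Fc receptor-like gene of B cells (chr1:157624444-157624834), had 24 and 60. The first of these was well above background in both lists, and the last had the higher fold in the combination list (10.31 against 3.733). The intronic region in BCL2, a gene for an inhibitor of apoptosis (chr18:63245765-63246384), had 24 fragments in each list. The weakest of the 12, farthest from any coding gene with TENM4 as the nearest (chr11:81071177-81071957), had 16 and 28, the combination peak having a −log10 q of 0.9363. The remaining DR5 regions lay nearest to GSAP, ABCC6, BCAN, TRERF1, CDC42EP3, EPAS1 and PADI2, with 17 to 31 fragments in the ATRA list and 16 to 44 in the ATRA+Corin list. ABCC6 has near-identical pseudogene copies, so the values of its region are uncertain.

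These shares did not differ detectably between stronger and weaker regions. Among the 830 regions at or above a −log10 q of 5 after both treatments, 6.265% held a PU.1 motif (4.809 to 8.124) and 0.4819% a DR5 (4 regions). Among the other 2203 the shares were 6.4% (5.452 to 7.5) and 0.3631% (8 regions).

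The 12 strongest regions, by the lower of their ranks in both lists, lay at genes of several kinds. The first (chr6:79992357-79994436) lay outside genes, 10213 bp upstream of TTK, a mitotic kinase gene, with 58 fragments in the ATRA list and 87 in the ATRA+Corin list. The next (chr19:41584566-41587073) overlapped exons and untranslated sequence of CEACAM21, a cell adhesion receptor gene, with 121 and 64. By fold, the ATRA list was the higher there (22.87 against 12.28) and the ATRA+Corin list at TTK (15.41 against 13.47). A region in an exon of SIGLEC16 (chr19:49970074-49970446) had 47 and 74 fragments, and one in an exon of SIGLEC11 (chr19:49960416-49960703) had 67 and 59. Both genes encode sialic acid receptors of myeloid cells and are near-identical paralogs, so reads may be placed at either and their separate values are uncertain. An intronic region of ALOX5, the enzyme that starts leukotriene synthesis (chr10:45383343-45384954), had 40 and 84 fragments. A region in P3H1 near CLDN19 (chr1:42748185-42749961) had 89 and 69, and one in an intron of UBASH3A (chr21:42430546-42431765) had 76 and 58. The others lay in DAB1 (2 regions), RAB11FIP4 and ADAM19 and 138078 bp upstream of TLE3, with 42 to 59 fragments in the ATRA list and 49 to 59 in the ATRA+Corin list. Of the 12 strongest, 3 held a RUNX motif, 2 an AP-1 motif and 0 a DR5 or PU.1 motif.

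Around protein-coding genes, 2901 of 19959 (14.5%) had an ATRA-shared region within 50 kb of the start site, and 28.5% had a Corin-shared region. Of 12 retinoid target genes, 6 had an ATRA-shared region, among them TGM2, PLAAT4, CEBPE, ASB2 and THBD. A Corin-shared region was near 4 of the 12. No set test was made, and the lists are short. The region upstream of TGM2, the tissue transglutaminase gene (chr20:38187092-38187533, 21822 bp from the start), had 27 fragments after ATRA and 33 after ATRA+Corin. The region counted for ASB2, a gene for a ubiquitin ligase subunit (chr14:94025646-94026212), had 35 and 28, but lay 49076 bp upstream and 128 bp from the start of OTUB2. At CEBPE (chr14:23129177-23129814, 9922 bp upstream, in SLC7A8) the counts were 16 and 17. The region counted for THBD, the thrombomodulin gene, had 26 and 53. That of PLAAT4, a retinoid-inducible phospholipase gene, had 21 and 22 and overlapped PLAAT3. The input background was high in both lists at THBD, and in the ATRA+Corin list at PLAAT4 and TGM2. At THBD it was 10.4 fragments in the ATRA+Corin list and 8.71 in the ATRA list. The lowest backgrounds of these lists were 3.494 and 2.963 fragments. The fold at THBD was 4.496 after ATRA+Corin and 2.701 after ATRA. At PLAAT4 the background was 10.4 fragments in the ATRA+Corin list and 2.96 in the ATRA list. The fold there was 1.95 after ATRA+Corin, with a −log10 q of 0.592, and 5.086 after ATRA. At TGM2 the fold was 2.853 after ATRA+Corin and 5.567 after ATRA.

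Receptor genes (16.7%) and genes of retinoid metabolism and transport (15.4%) had an ATRA-shared region about as often as all protein-coding genes (14.5%). Of 6 retinoid receptor genes 1, RARG, had an ATRA-shared region (chr12:53213548-53213880, over an exon of RARG, 26 and 17 fragments). A Corin-shared region was near 4 of the 6 (66.7%, against 28.5% of all protein-coding genes). Of 13 genes of retinoid metabolism and transport, 2 had an ATRA-shared region and 2 a Corin-shared one. DHRS3, a retinaldehyde reductase gene, held 2 intronic regions with 24 and 19 fragments in the ATRA list and 22 and 31 in the ATRA+Corin list. ALDH1A2 held 1 (chr15:58087731-58088358, 28 and 42 fragments). The start site of CYP26A1 had none within 50 kb, its DR5 region lying beyond that distance.

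Among 20 myeloid differentiation genes, 7 had an ATRA-shared region (35%) and 11 a Corin-shared one (55%). The shares over all protein-coding genes were 14.5% and 28.5%. FCGR1A, the high-affinity IgG receptor gene, had 2, both upstream, with 35 and 26 fragments in the ATRA list and 25 and 39 in the ATRA+Corin list. It has near-identical copies on the same chromosome, so these values are uncertain. The region 2021 bp upstream of FPR1, the formyl peptide receptor gene (chr19:51753899-51754508), had 27 and 35 and lay 38 bp from a Corin peak. The intronic region of CSF1R, the receptor of macrophage colony-stimulating factor, had 22 in each list. CSF3R, CYBB, CEBPB and SPI1, which encodes PU.1 itself, each had 1 region, with 14 to 17 fragments in the ATRA list and 16 to 32 in the ATRA+Corin list. The region counted for SPI1 lay in MYBPC3, 28926 bp from the SPI1 start. Those of CSF3R and CEBPB lay 79 and 250 bp from a DMSO peak.

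Of 15 genes of the CoREST complex and of receptor corepressors and coactivators, 6 had an ATRA-shared region and 6 a Corin-shared one. Each is a share of 40%, against 14.5% (ATRA-shared) and 28.5% (Corin-shared) of all protein-coding genes. NCOA3, a receptor coactivator gene, had 2, and its intronic one (chr20:47530939-47532425) was among the stronger regions, with 50 and 67 fragments and a −log10 q of 27.64 and 16.56. GFI1 had one 39582 bp downstream of its start (chr1:92446961-92447343, 36 and 33), and GFI1B, its paralog in erythroid cells and megakaryocytes, had one with 20 and 30. RCOR1, HDAC1 and NCOR1 had 1 each, with 14 to 33 and 18 to 45 fragments. Of 10 stem and progenitor genes, 0 had an ATRA-shared region and 2 a Corin-shared one (20%). With the same shares over all genes and so short a list, nothing is read from these counts.

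Regions also occurred in groups. Within 50 kb of their start site, 2493 genes had 1 ATRA-shared region, 356 had 2, 41 had 3 and 11 had 4. Of the 11, 7 shared regions with neighbours: SIGLEC11, SIGLEC16, ATF5, NUP62 and ENSG00000269179 counted the same 4 regions, and CEACAM21 and CEACAM4 counted another 4. GNG2, TIPARP, ENSG00000284686 and ENSG00000284895 each counted 4 that no other gene of the 11 counted. TIPARP tied with the 10 genes that the naming rule took by symbol and was added for that reason. At GNG2, a G protein gamma subunit gene, the 4 regions stood 5183 to 22118 bp downstream of the start, and the first (chr14:51865795-51868788) had 18 fragments after ATRA and 101 after ATRA+Corin. The others had 20 and 37, 35 and 34, and 16 and 16. By fold, the first GNG2 region stood at 4.406 in the ATRA list and 11.81 in the ATRA+Corin list. The others stood at 4.859 and 7.403, 5.021 and 6.208, and 3.586 and 3.39. At TIPARP, a poly-ADP-ribose polymerase gene induced through the aryl hydrocarbon receptor, the counts ran from 16 to 26 after ATRA and from 23 to 32 after ATRA+Corin. At CEACAM21, the 4 regions had 121, 45, 23 and 16 fragments in the ATRA list and 64, 67, 29 and 23 in the ATRA+Corin list. The remaining genes with 4 were ENSG00000284686, whose regions lay partly in PLPP3, and ENSG00000284895, within HIVEP3. The map of peaks around 3 start sites shows where these regions stood beside the peaks of the other lists.

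**Figure D5:**
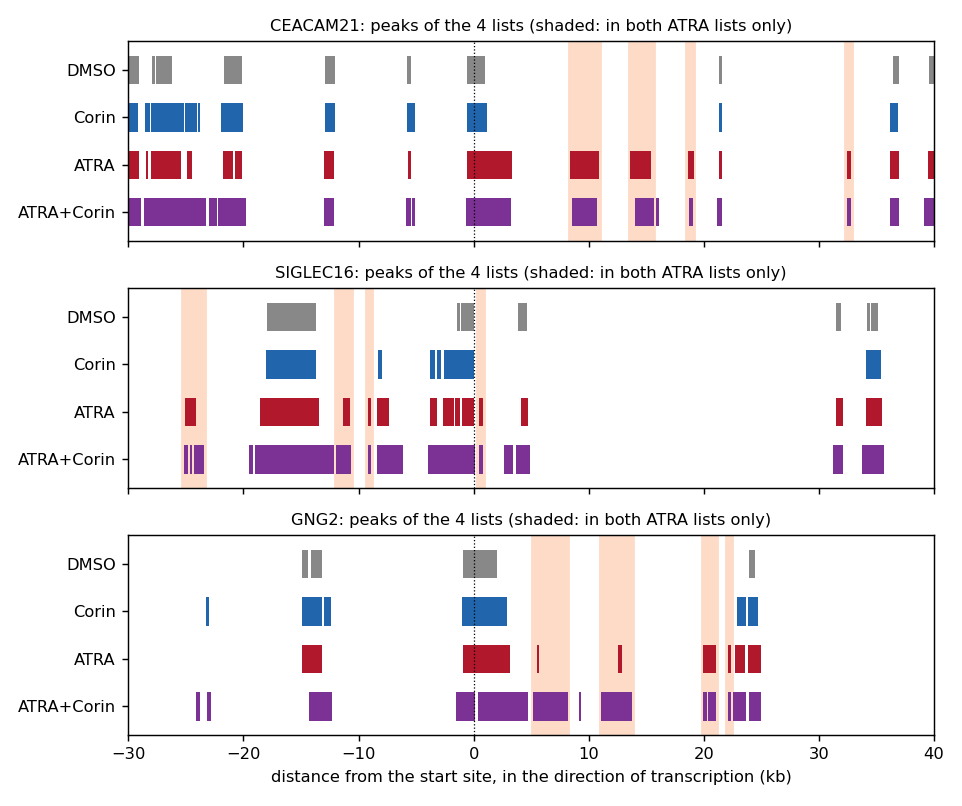
Peaks of the 4 lists (rows) around the start sites of CEACAM21, SIGLEC16 and GNG2, by distance from the start site in the direction of transcription (x axis, kb), with ATRA-shared regions shaded and the shading widened slightly so that short regions can be seen. In each panel 4 shaded regions hold ATRA and ATRA+Corin peaks and no DMSO or Corin peak.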

How the data were processed

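H3K4me2 chromatin immunoprecipitation libraries and inputs of U-937 cells were sequenced as pairs of reads, per the labels' protocols. The submitters' processing notes name Trimmomatic, Bowtie2, Picard and MACS2 and the build hg38, with no versions or settings. The deposited lists, 1 per treatment, give for each peak a score, a fold enrichment over input (a ratio), a −log10 p, a −log10 q and a summit, all from the authors' peak caller. The score was not used further, and 0 peaks ran past a GRCh38 chromosome end. Fragments at a summit were solved from fold and −log10 p (pseudocount 1, tolerance 0.001), which succeeded for 97.57% to 99.99% of peaks in a list. These depths limit weak peaks.

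Regions, motifs and GENCODE release 44 gene distances were computed with Python 3.11.15, numpy 2.4.6, pandas 2.3.3 and scipy 1.17.1, on routines tested on simulated data. Shares have 95% Wilson intervals and differences Newcombe intervals, both covering counting error only. Named were the 12 regions with the best worse-of-both rank, the best 6 with a DR5 and 4 with a DR2, listed genes with a region within 50 kb, and the 10 genes with most regions, ties by symbol. Members and lists were chosen with earlier results of these data known. Alternatives were stricter peaks, merging within 1 kb, lists of equal length, single peaks, and other windows. Chromosome Y and per-library values were not analysed here, and some genes and sequences are not reported here.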

Additional observations from a re-analysis of the deposited data

How the results depend on the processing

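The number of ATRA-shared regions was 2645 when every list kept only peaks at or above a −log10 q of 5, 2254 with peaks within 1 kb merged, 2252 with lists of equal length and 3942 as single ATRA peaks. With this limit set only on the ATRA and ATRA+Corin peaks the number was 830, and then the promoter share was 6.747%, the share with a DMSO peak within 5 kb 40.24%, the C/EBP share 17.47% and the share of genes within 50 kb 4.67%. With the limit on every list the promoter share was 6.352%, the share near a DMSO peak 36.03%, the PU.1 share 5.444% and the gene share 13.05%. Merging within 1 kb gave 30.35% near a DMSO peak, a C/EBP share of 20.9% and a gene share of 10.76%. Lists of equal length gave 42.36% near a DMSO peak and a gene share of 11.15%. Wider or narrower windows changed the values by construction: 9.759% of regions within 2.5 kb of a start site, 3.287% of genes within 10 kb and 26.04% within 100 kb, and, in 1000 bases, 0.6924% with a DR5, 15.73% with PU.1, 48.66% with C/EBP and 27.37% with AP-1. With both units spelled AGGTCA the DR5 share was 0.1649%. The cause of the other shifts was not tested. AP-1 was less frequent than in Corin-shared regions in each of these sets where both were computed, for example 10.25% against 14.19% with the limit on every list and 9.591% against 13.73% with lists of equal length.

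No paired analysis was possible because each treatment has 1 pooled list with no values per replicate, and no replicate could be left out for the same reason. Weak peaks limit these results: the median region rests on 21 fragments after ATRA, and a region without a listed peak can still carry H3K4me2.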

Other observations

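Beyond the windows around start sites, ATRA-shared regions formed runs along the genome. With gaps of up to 50 kb, 857 of the 3033 regions (28.3%) lay in 383 runs of 2 or more, and with gaps of up to 10 kb, 383 regions (12.6%) lay in 181 runs. The same shares are not given for the other sets, so runs cannot be called particular to ATRA-shared regions. The longest run held 8 regions in and next to HIVEP3, a zinc finger gene (chr1:41623009-41777415). A run of 6 lay between CD83, a gene for a marker of mature dendritic cells, and JARID2, a gene for a Polycomb cofactor (chr6:14614161-14739415). Runs of 4 lay at CYP1B1, a cytochrome P450 gene (chr2:38100346-38144613), at NCOA3 (chr20:47530939-47610602), at ITGA9, an integrin gene (chr3:37390751-37396713), and at ERRFI1, a gene for an inhibitor of the epidermal growth factor receptor (chr1:8116482-8156028). By chromosome, ATRA-shared regions were from 2.53% of the regions on chromosome 19 (2.07 to 3.09, 95% Wilson interval) to 4.32% on chromosome 5 (3.74 to 4.98). These runs and shares were picked after the values were seen and were not tested.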
